A study of Mus musculus with 18 samples.

Results

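The comparison described here is that of infarct left ventricle tissue 6 h after ligation against sham, over all genes with an FPKM (fragments mapped to a transcript, scaled by its length and by the size of the library) of at least 1 in at least 1 of the 6 mice. These were 12254 of the 24419 gene symbols listed. The sham group, named control in the sample labels, held 3 mice, and 3 other mice were sampled 6 h after the left anterior descending artery of the heart had been tied off close to its origin, which starts an acute myocardial infarction (AMI). All of these animals were C57BL/6 mice of 8 weeks with no genetic change named, male by the methods of the study, and all mice were anaesthetised with sodium pentobarbital. Each value is one animal, and the whole tissue piece was sequenced from polyadenylated RNA, so that muscle, vessel, connective tissue and blood cells were measured together. The 12 other mice of the series, 3 at each of 10 min, 1 h, 24 h and 72 h, are used below only to place 6 h in the time course. What was done to the sham mice beyond anaesthesia is not given in the sources used here.

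Closing a coronary artery leaves the heart muscle behind it without oxygen. Cells under such stress switch on immediate early transcription factors, chaperones and metal-binding proteins, while dying cells release molecules that make the surrounding vessel and connective tissue cells produce cytokines and chemokines. Neutrophils are known as the first leukocytes to enter infarcted myocardium, followed by monocytes, and the matrix is later rebuilt by fibroblasts.

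The FPKM of each of the 6 mice summed to between 580135 and 600467. Read counts are not given. Ratios of low FPKM values shared with sham mouse 1 lay between 0.982 and 1.09. FPKM is already scaled by the size of the library, so that these ratios cannot tell whether the 6 libraries were sequenced equally deep. All 12 cardiomyocyte markers were expressed in all 6 mice, and 3 of them were lower at 6 h (1 without any one sham mouse and 7 without 6 h mouse 2). Cardiac troponin T gene Tnnt2 had 23074, 23970.2 and 21543 FPKM in sham mice 1, 2 and 3 and 19453, 25866 and 20090.5 in 6 h mice 1, 2 and 3. These markers thus matched heart muscle, and whether they set ventricle apart from atrium was not tested. The library of 6 h mouse 1 stood apart in genes that are typical of atrial muscle and were looked at after their values had been seen. Myl7, an atrial myosin light chain, had 18.7, 0 and 0.0193 FPKM in the 3 mice at 6 h, sarcolipin gene Sln had 12.5, 0 and 0 and Myl4 had 63.0, 1.72 and 1.91, whereas the sham mice were at or below 2.07 FPKM in each. The part of this library in each result was not tested other than by leaving it out.

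At an adjusted p under 0.05, 1550 genes were higher (12.6% of those tested) and 2225 were lower (18.2%) at 6 h than in the sham mice, by the moderated test of limma on log2(FPKM + 1) with Benjamini-Hochberg adjustment over all genes. In the text below, rose and fell refer to this test, and the log2 difference is the group mean at 6 h minus that of the sham mice on this scale, where low genes appear to change less than their FPKM does. Each count of list members below stands against these shares of 12.6% and 18.2% in the fit with all mice. Genes under 1 FPKM in all 6 mice were not tested, so that low members that did not rise are not in such counts. By the thresholds of the study (p under 0.05 before adjustment, mean FPKM more than 2 times higher or lower), the DEGs were 813 higher (6.63%) and 400 lower (3.26%). The rises were larger than the falls. Of the genes that rose, 512 had a log2 difference over 1, 143 over 2 and 56 over 3, with a median of 0.73. Of the genes that fell, 130 were below -1 and 4 below -2, with a median of -0.51. Fewer genes were called without a sham mouse, with 832 higher and 924 lower without sham mouse 1, 868 and 1063 without sham mouse 2, and 920 and 858 without sham mouse 3. In all, 768 rises and 757 falls passed in each of the 6 fits that left out 1 mouse. With 3 mice against 3, an exact permutation test of a single gene cannot give a p below 0.1, and the p-values measure the spread between these animals. Among all tested genes 50.6% had no overlap between the groups, so that separation of the 3 values from the other 3 was common.

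The larger number of falls depended on the scale. The median log2 difference over all tested genes was -0.10 on the deposited FPKM. After median-of-ratios scaling, which sets the typical gene to no change, 2005 genes were higher and 1456 lower, so that 57.9% of the calls were rises against 41.1% on the deposited values. Of the 1550 rises 1546 were also called in this way, and of the 2225 falls 1456. Quantile normalization gave 1611 higher and 2084 lower, and rescaling to the same sum 1421 and 2352. The genes named as fallen below kept their direction under all 3 scalings. All but 5 of them, Ahr, Casp1, Cxcl12, Myh6 and Nqo1, also kept their call.

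**Figure D1:**
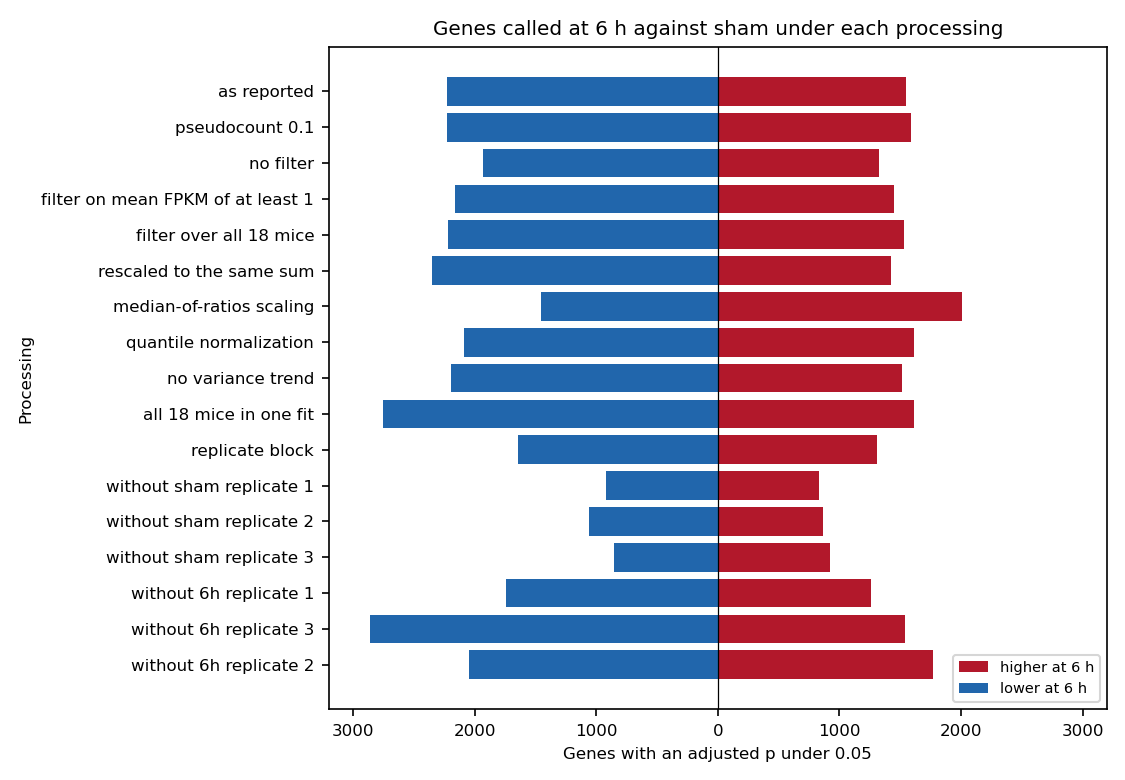
Genes with an adjusted p under 0.05 at 6 h against sham under each way of processing, with rises to the right and falls to the left of 0. Falls outnumbered rises on the deposited FPKM (2225 against 1550), and rises outnumbered falls after median-of-ratios scaling (2005 against 1456) and without sham mouse 3 (920 against 858).

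The largest rise was that of a metallothionein, a small cysteine-rich protein that binds zinc and copper. Mt2 had 36.5, 34.4 and 36.3 FPKM in the sham mice and 4027, 3488 and 3923 at 6 h (log2 difference 6.70, SE 0.08, adjusted p = 8.85e-09). The 6 h mice lay within a narrow band, and the ratio of the mean FPKM was 107. Mt1 had 279, 267 and 288 FPKM in the sham mice and 3556, 3804 and 3648 at 6 h (log2 difference 3.72, SE 0.06, adjusted p = 8.95e-08), so that Mt2, lower than Mt1 in every sham mouse, stood close to its neighbour at 6 h in FPKM. Of 13 tested genes of metallothioneins and zinc transport, 7 rose, 5 of them in every fit that left out 1 mouse, with a median log2 difference of 0.61. The zinc importer gene Slc39a14 went from 12.6, 13.2 and 14.2 to 33.8, 25.2 and 28.9 FPKM (log2 difference 1.07, adjusted p = 0.00102). Slc30a1, which encodes a zinc exporter, had 10.8, 11.2 and 10.6 FPKM in the sham mice and 11.9, 9.23 and 9.32 at 6 h, and these values overlapped (log2 difference -0.10, adjusted p = 0.506).

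Mt2 and Mt1 lie next to each other on the plus strand of chromosome 8 in mm10, from 94172664 to 94173568 and from 94179082 to 94180327 by GENCODE release M21. Transcription of metallothionein genes is known to be driven through metal response elements, whose core was searched here as TGCACNC and TGCGCNC on both strands. The 2 promoters below run from 250 bases before to 50 after the RefSeq start on GRCm38.p6, 5′ to 3′, and are shown because these genes gave the largest and one of the most even rises. Mt2 covers chr8:94172368-94172667 and Mt1 chr8:94178839-94179138, and capitals mark each match on either strand.
Mt2: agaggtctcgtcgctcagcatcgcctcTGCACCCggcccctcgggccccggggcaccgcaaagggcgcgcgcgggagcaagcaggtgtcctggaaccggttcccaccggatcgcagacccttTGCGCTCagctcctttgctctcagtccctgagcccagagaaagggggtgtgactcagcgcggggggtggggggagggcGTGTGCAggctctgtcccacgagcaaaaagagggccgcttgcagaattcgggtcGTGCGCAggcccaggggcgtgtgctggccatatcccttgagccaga
Mt1: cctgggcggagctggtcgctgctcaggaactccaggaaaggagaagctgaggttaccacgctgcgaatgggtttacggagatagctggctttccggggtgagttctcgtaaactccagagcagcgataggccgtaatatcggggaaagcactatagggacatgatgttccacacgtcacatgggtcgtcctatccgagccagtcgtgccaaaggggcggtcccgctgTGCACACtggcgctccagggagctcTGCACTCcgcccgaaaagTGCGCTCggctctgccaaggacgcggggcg
The Mt2 promoter held 4 matches and that of Mt1 3, without overlap between matches. At least 3 matches were found in 1.97% of 32817 promoters of the same length, and at least 1 in 25.7%. The promoter of Slc30a1 held 2 matches. Over the list, a match was present in 3 of 5 risen genes with a promoter sequence and in 4 of 6 tested genes that did not rise.

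Inducible heat shock genes were also among the largest rises. Hspa1a and Hspa1b encode the inducible Hsp70 chaperone, which refolds damaged proteins. Hspa1a had 2.23, 2.59 and 3.38 FPKM in the sham mice and 338, 82.6 and 118 at 6 h (log2 difference 5.34, SE 0.45, adjusted p = 0.000374). Hspa1b had 2.38, 2.28 and 4.63 and 360.1, 79.1 and 126 FPKM (log2 difference 5.28, SE 0.50, adjusted p = 0.000607). Both were highest in mouse 1, 4.09 and 4.55 times the level of mouse 2, and all 6 h values were far above sham. The small heat shock protein gene Hspb1 went from 651, 599.6 and 703 to 4179, 3103 and 1681 FPKM (log2 difference 2.102, SE 0.29, adjusted p = 0.00241), here with mouse 3 the lowest. Dnajb1, a co-chaperone, had 8.28, 8.47 and 11.3 FPKM in the sham mice and 40.9, 17.1 and 17.6 at 6 h (log2 difference 1.24, adjusted p = 0.0211), with an adjusted p of up to 0.0738 without sham mouse 1, the highest of the fits that left out a mouse. Of 26 tested heat shock genes 8 rose and 2 fell, and the rises numbered 5, 4 and 5 without sham mouse 1, 2 and 3, while the falls numbered 1 without any one sham mouse and 4 without 6 h mouse 3. Over all tested genes 12.6% rose and 18.2% fell. Hspa12a, a distant Hsp70 relative, fell from 12.3, 12.6 and 11.95 to 4.33, 4.0 and 6.43 FPKM (log2 difference -1.19, adjusted p = 0.00173). The median log2 difference of the list was 0.14.

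Hspa1a and Hspa1b lie on the minus strand of chromosome 17, from 34969190 to 34972156 and from 34956436 to 34959238 in mm10. The pair is a product of duplication, and the RefSeq promoters had the same base at 296 of 300 positions, so that reads may be shared between the genes and the split between them is uncertain. The heat shock element was searched as GAANNTTC, which reads the same on both strands. The promoters are those of chr17:34972107-34972406 and chr17:34959189-34959488 on the minus strand, shown to let the near identity be seen, with the match in capitals.
Hspa1a: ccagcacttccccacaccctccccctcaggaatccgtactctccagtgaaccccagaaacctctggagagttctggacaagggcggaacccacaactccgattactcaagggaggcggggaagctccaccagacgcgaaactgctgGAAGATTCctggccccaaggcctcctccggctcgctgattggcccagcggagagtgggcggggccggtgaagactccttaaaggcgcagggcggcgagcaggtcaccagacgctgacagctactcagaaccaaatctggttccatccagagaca
Hspa1b: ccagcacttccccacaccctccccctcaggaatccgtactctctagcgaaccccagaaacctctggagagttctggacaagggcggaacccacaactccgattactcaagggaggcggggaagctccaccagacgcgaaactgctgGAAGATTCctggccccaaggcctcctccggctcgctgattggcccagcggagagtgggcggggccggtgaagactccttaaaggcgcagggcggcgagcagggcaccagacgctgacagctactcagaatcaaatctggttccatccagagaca
Each held 1 match, against at least 1 in 7.86% of all promoters. The Hspb1 promoter held 2, which 0.341% of promoters reached. Among the listed genes with a promoter sequence, 3 of 6 risen genes and 8 of 14 tested genes that did not rise had a match in at least one of their promoters.

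Other stress programmes were raised in part. The heme oxygenase gene Hmox1, an NRF2 target that degrades heme, went from 3.85, 4.77 and 5.197 to 93.0, 64.2 and 90.3 FPKM (log2 difference 3.88, SE 0.16, adjusted p = 2.35e-05), with little spread. Of 21 tested NRF2 and antioxidant genes 8 rose, and 5 without sham mouse 1 or sham mouse 2. The p53 and growth arrest list had 8 of 15 genes higher. Among them the cell cycle inhibitor gene Cdkn1a went from 10.3, 8.82 and 11.2 to 231, 168 and 123 FPKM (log2 difference 3.93, SE 0.21, adjusted p = 6.61e-05), whereas Mdm2, the ubiquitin ligase that limits p53, had 3.20, 2.67 and 3.22 and 3.52, 2.81 and 3.41 FPKM (log2 difference 0.07, adjusted p = 0.629). In the integrated stress and unfolded protein list 14 of 28 rose, and 9 without sham mouse 2 or sham mouse 3. Gdf15, a stress cytokine, went from 0.423, 0.323 and 0.454 to 4.48, 8.24 and 3.57 FPKM (log2 difference 2.13, adjusted p = 0.00113), and Atf4, the transcription factor of the integrated stress response, from 48.3, 47.4 and 55.8 to 137, 106 and 86.1 (log2 difference 1.08, adjusted p = 0.00331). Markers of the endoplasmic reticulum branch named here did not pass the test. Hspa5, the chaperone BiP, had 237, 211 and 228 FPKM in the sham mice and 289, 208 and 248 at 6 h (log2 difference 0.13, adjusted p = 0.432), and Ddit3, the factor CHOP, had 21.8, 22.0 and 25.4 and 17.6, 21.2 and 19.9 (log2 difference -0.23, adjusted p = 0.13). Of 24 tested hypoxia targets 10 rose, with a median log2 difference of 0.16 against -0.10 for all genes. The glucose transporter gene Slc2a1 led them, with 5.97, 6.42 and 6.06 FPKM in the sham mice and 53.04, 26.4 and 31.8 at 6 h (log2 difference 2.35, adjusted p = 0.000612), while Egln3, an oxygen-sensing hydroxylase, had 33.0, 25.9 and 34.8 and 38.8, 22.6 and 35.0 (log2 difference 0.02, adjusted p = 0.956).

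**Figure D2:**
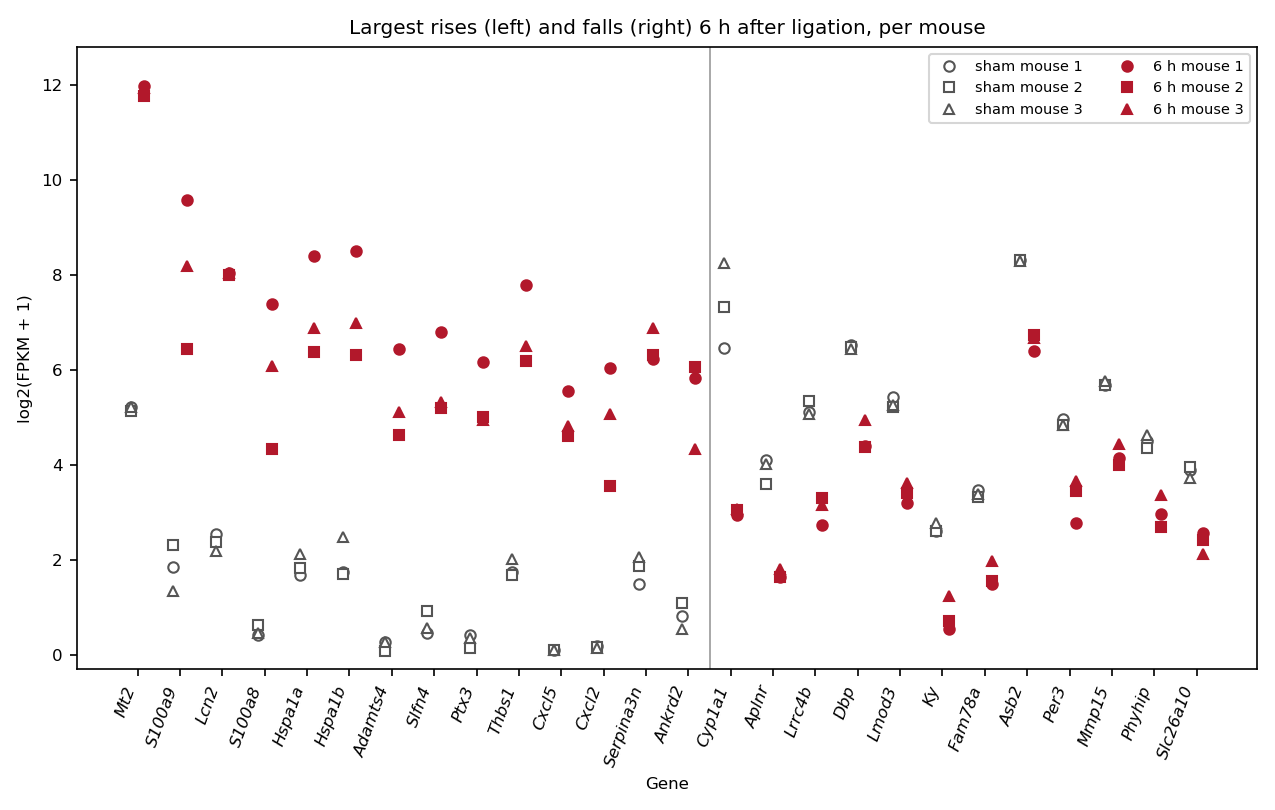
Log2(FPKM + 1) of 14 of the 15 largest rises and the 12 largest falls in each sham mouse (open) and each 6 h mouse (filled). The rises spanned log2 differences from 6.70 to 4.58 with a wide spread at 6 h in S100a9, S100a8 and Cxcl2, while Mt2 and Lcn2 had almost equal values in the 3 mice, and the falls spanned -4.32 to -1.48.

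Transcription factors of the immediate early response were still high at 6 h. Of 10 tested members of the AP-1 list 9 rose, all of them in every fit that left out 1 mouse, with a median log2 difference of 2.72. Atf3, a stress-induced repressor, went from 2.08, 2.25 and 2.595 to 138, 49.1 and 41.8 FPKM (log2 difference 4.34, SE 0.39, adjusted p = 0.00048). Fos went from 0.355, 0.697 and 0.537 to 45.6, 11.9 and 15.5 FPKM (log2 difference 3.82, SE 0.42, adjusted p = 0.00106) and Junb from 8.10, 8.53 and 9.504 to 164, 82.3 and 93.5 (log2 difference 3.49, adjusted p = 0.000169). Mouse 1 was the highest in all 9 genes. The tenth member, Jund, had 1.14, 40.6 and 41.4 FPKM in the sham mice and 0.956, 66.4 and 1.03 at 6 h, a jump between mice of the same group that left it without a usable comparison. Of the 10 EGR, NR4A, IER and Myc genes 8 rose in every such fit. Egr1 went from 4.12, 5.43 and 5.03 to 141, 59.3 and 52.1 FPKM (log2 difference 3.72, adjusted p = 0.000475), Nr4a1 from 4.02, 2.64 and 3.60 to 22.2, 9.96 and 9.81 (log2 difference 1.68, adjusted p = 0.00563) and Myc from 0.141, 0.174 and 0.163 to 4.30, 2.33 and 1.72 (log2 difference 1.65, adjusted p = 0.00253). Of 13 feedback inhibitors of MAP kinase signalling 9 rose, and 5 without sham mouse 1. Dusp5, a phosphatase of ERK, went from 2.58, 2.77 and 2.64 to 28.5, 13.2 and 8.88 FPKM (log2 difference 2.13, adjusted p = 0.00428).

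Neutrophil genes were among the largest rises. All 14 tested neutrophil markers rose, 13 of them in every fit that left out 1 mouse. The list held 19 genes. Ly6g was not among the symbols listed, and Mpo, Elane, Camp and Ltf stayed under 1 FPKM and were not tested. Tested markers such as S100a8, Cxcr2 and Trem1 passed the filter only through the 6 h mice, so that a low marker that did not rise could not enter this count. The FPKM of the 18 markers present summed to between 5.56 and 7.96 in the sham mice and to 1266, 181 and 473 in 6 h mice 1, 2 and 3. In tissue measured as a whole, more cells of a type and more RNA per cell cannot be told apart. S100a9, which with S100a8 forms the antimicrobial protein calprotectin, had 2.62, 4.02 and 1.53 FPKM in the sham mice and 768, 86.5 and 292 at 6 h (log2 difference 6.24, SE 0.68, adjusted p = 0.00106). S100a8 had 0.340, 0.550 and 0.375 and 167, 19.2 and 66.7 FPKM (log2 difference 5.43, SE 0.64, adjusted p = 0.00134). The 2 genes lie near each other on chromosome 3, from 90692632 to 90695721 and from 90668978 to 90670035 in mm10, and took the same order of mice. Cxcr2, the receptor that guides neutrophils along ELR chemokines, went from 0.0391, 0.1597 and 0.174 to 40.9, 5.11 and 8.94 FPKM (log2 difference 3.60, SE 0.60, adjusted p = 0.00506). Retnlg, made by neutrophils, went from 0, 0.0755 and 0 to 10.7, 1.49 and 4.34 (log2 difference 2.39, adjusted p = 0.00932). The highest 6 h mouse had 8.88 times the S100a9 of the lowest. Mouse 2 was the lowest in 13 of the 14 markers and mouse 1 the highest in all of them.

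All 15 listed monocyte markers were tested and 14 rose, 10 of them in every fit that left out 1 mouse, against 12.6% of all tested genes. Chil3 and Ccr2 passed the filter only through the 6 h mice. Chil3, a chitinase-like protein of inflammatory monocytes, went from 0.0817, 0.0836 and 0.110 to 26.4, 5.87 and 9.10 FPKM (log2 difference 3.51, SE 0.44, adjusted p = 0.00168), and Ccr2, their receptor for Ccl2, from 0.602, 0.791 and 0.521 to 3.22, 1.73 and 2.94 (log2 difference 1.13, adjusted p = 0.00407). Ly6c2, a monocyte surface protein, went from 1.27, 1.68 and 1.63 to 4.54, 2.88 and 3.24 (log2 difference 0.84, adjusted p = 0.00712). The markers of resident macrophages were split, with 5 of 14 higher and 5 lower, where 12.6% of all tested genes rose and 18.2% fell. Leaving out 1 sham mouse left 2 or 3 higher and 2 lower, without 6 h mouse 1 both counts were 3, and without 6 h mouse 2 the lower count was 3. Cd163, a scavenger receptor for hemoglobin, rose from 3.83, 4.45 and 4.18 to 7.39, 7.95 and 10.2 FPKM (log2 difference 0.87, adjusted p = 0.00274) and Lyve1, a hyaluronan receptor, from 26.8, 32.2 and 33.9 to 49.5, 41.2 and 55.3 (log2 difference 0.63, adjusted p = 0.0116). Timd4, a phosphatidylserine receptor of long-lived macrophages, fell from 3.35, 3.09 and 2.64 to 0.764, 0.530 and 1.63 (log2 difference -1.06, adjusted p = 0.00793) and Cx3cr1 from 0.902, 1.19 and 1.31 to 0.195, 0.164 and 0.214 (log2 difference -0.84, adjusted p = 0.00354). C1qa, a complement gene of macrophages, had 75.5, 86.6 and 91.3 FPKM in the sham mice and 67.1, 73.0 and 80.3 at 6 h (log2 difference -0.20, adjusted p = 0.174). Few lymphocyte markers could be tested, with 3 of 12 T cell, 2 of 10 B cell and 0 of 9 NK cell markers reaching an FPKM of 1. Trac, Trbc2, Ighm and Ighd were not among the symbols listed, and the other untested markers were too low. Of the 3 T cell markers 2 rose, 1 of them in every fit that left out 1 mouse. The pan-leukocyte list had 4 of 10 genes higher, and 9 without 6 h mouse 2, the mouse with the lowest leukocyte markers. Ptprc, the common leukocyte antigen CD45, had 0.835, 0.848 and 0.668 FPKM in the sham mice and 3.47, 1.06 and 1.76 at 6 h (log2 difference 0.72, adjusted p = 0.0667).

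Chemokines that act on neutrophils showed some of the largest ratios, up to 417 for Cxcl5. Of 27 tested chemokine ligands 16 rose, 15 of them in every fit that left out 1 mouse, with a median log2 difference of 1.24. Over all tested genes 12.6% rose. The list held 31 ligands, and Ccl8, Ccl22, Cxcl11 and Cxcl13 stayed under 1 FPKM and were not tested. Cxcl5, Cxcl2 and Cxcl3 passed the filter only through the 6 h mice, so that a low ligand that did not rise could not enter this count. Cxcl5, an ELR chemokine for neutrophils, had 0.0795, 0.0738 and 0.0786 FPKM in the sham mice and 45.8, 23.6 and 27.3 at 6 h (log2 difference 4.89, SE 0.22, adjusted p = 2.82e-05). Cxcl2 had 0.149, 0.126 and 0.110 and 64.9, 10.8 and 32.9 FPKM (log2 difference 4.72, SE 0.52, adjusted p = 0.00109), Cxcl1 1.14, 1.04 and 1.37 and 89.9, 23.5 and 53.7 (log2 difference 4.51, adjusted p = 0.000475), and Cxcl3, listed at 0 in each sham mouse, 33.2, 4.74 and 17.5 at 6 h (log2 difference 3.94, adjusted p = 0.00255). These 4 genes lie within chromosome 5 from 90759360 to 90905938 in mm10. In all 4 the mice kept one order, with mouse 1 the highest and mouse 2 the lowest. The monocyte chemokine gene Ccl7 went from 2.98, 3.21 and 3.31 to 47.2, 31.7 and 43.4 FPKM (log2 difference 3.31, adjusted p = 2.78e-05), with less spread. Cxcl12, a constitutive chemokine of stromal cells, had 294, 277 and 261 FPKM in the sham mice and 223, 219.8 and 244 at 6 h, and its fall (log2 difference -0.28, adjusted p = 0.0353) was lost in 5 of the 6 fits that left out 1 mouse, with an adjusted p of up to 0.149 without sham mouse 1. Among the receptors, Ccr1 went from 0.332, 0.699 and 0.399 to 18.3, 3.54 and 7.84 FPKM (log2 difference 2.64, adjusted p = 0.00524), and Ackr4, a decoy receptor, fell from 2.57, 1.95 and 3.69 to 0.579, 1.08 and 0.984 (log2 difference -0.98, adjusted p = 0.00898).

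Of 25 tested cytokine genes of the IL-1, TNF and IL-6 families and their receptors 19 rose, against 12.6% of all tested genes. The rises numbered 15 without 6 h mouse 1 or any one sham mouse. The list held 30 genes, and Il1a, Il18, Tnf, Tnfsf9 and Tnfsf11 stayed under 1 FPKM and were not tested. Il1b and Il1rn passed the filter only through the 6 h mice, so that a low gene that did not rise could not enter this count. Il1b, the fever cytokine IL-1β, went from 0.401, 0.414 and 0.364 to 49.4, 8.34 and 32.0 FPKM (log2 difference 4.16, SE 0.53, adjusted p = 0.00181) and its antagonist Il1rn from 0.199, 0.135 and 0.119 to 41.0, 4.49 and 13.2 (log2 difference 3.69, SE 0.61, adjusted p = 0.00488). Both took the same order of mice, and the ligand was above its antagonist in FPKM in each 6 h mouse. Osmr, the oncostatin M receptor, showed far less spread, from 11.5, 12.3 and 13.2 to 66.0, 51.0 and 49.5 FPKM (log2 difference 2.07, adjusted p = 0.000126). Downstream, 11 of 18 genes of the STAT3 and SOCS list rose, each in every fit that left out 1 mouse, and 2 fell. The feedback inhibitor Socs3 went from 1.64, 1.72 and 1.48 to 87.3, 28.4 and 39.1 FPKM (log2 difference 4.17, SE 0.35, adjusted p = 0.000351) and Stat3 itself from 35.7, 35.1 and 37.7 to 106, 71.2 and 100.9 (log2 difference 1.31, adjusted p = 0.00112). Of 15 genes of NF-κB and its feedback 11 rose, with 6, 5 and 5 left without sham mouse 1, 2 and 3. Nfkbiz, an inducible cofactor, went from 2.56, 2.65 and 2.74 to 21.9, 10.6 and 10.3 FPKM (log2 difference 1.98, adjusted p = 0.00183), and the feedback enzyme A20, gene Tnfaip3, had 1.56, 1.35 and 1.72 and 7.16, 2.32 and 2.88 (log2 difference 0.89, adjusted p = 0.058).

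Interferon-stimulated genes showed more falls than rises, as did all tested genes (18.2% fell and 12.6% rose). Of 26 tested 1 rose and 8 fell, with a median log2 difference of -0.19 against -0.10 for all genes. Falls numbered 4, 3 and 2 without sham mouse 1, 2 and 3, and 5 without 6 h mouse 2 or mouse 3. After median-of-ratios scaling 3 fell and 2 rose. Ifit2, an antiviral effector, fell from 11.0, 12.2 and 13.04 to 8.64, 7.15 and 5.63 FPKM (log2 difference -0.70, adjusted p = 0.0107), and Isg15 had 4.01, 2.78 and 4.57 in the sham mice and 6.23, 3.34 and 3.54 at 6 h (log2 difference 0.14, adjusted p = 0.635). The immunoproteasome gene Psmb9, which interferon is known to induce, fell from 9.07, 10.2 and 9.07 to 5.49, 5.85 and 4.51 FPKM (log2 difference -0.74, adjusted p = 0.00311). Of 12 tested Toll-like receptor genes and adaptors 5 rose. They included Cd14, the lipopolysaccharide co-receptor, with 4.50, 5.35 and 4.85 FPKM in the sham mice and 109.7, 15.8 and 34.8 at 6 h (log2 difference 2.78, adjusted p = 0.0109) and Tlr4 with 2.67, 2.81 and 3.60 and 12.1, 5.34 and 7.53 (log2 difference 1.15, adjusted p = 0.0119). Of 8 tested pyroptosis genes 3 rose and 1 fell. Casp4, the inflammatory caspase 11 of the mouse, rose from 2.12, 1.32 and 1.51 to 9.39, 5.12 and 7.66 FPKM (log2 difference 1.64, adjusted p = 0.00163), and Nlrp3, the inflammasome sensor, from 0.125, 0.275 and 0.190 to 4.70, 0.866 and 1.51 (log2 difference 1.32, adjusted p = 0.0296), a call lost without sham mouse 1, with an adjusted p of 0.0887, and without 2 other mice. Casp1 had 2.70, 2.15 and 2.14 FPKM in the sham mice and 1.55, 1.60 and 1.61 at 6 h (log2 difference -0.36, adjusted p = 0.0416), and this fall was lost in each of the 6 fits that left out 1 mouse. Gsdmd, the pore-forming gasdermin D, had 1.61, 1.57 and 1.73 and 1.32, 1.39 and 1.37 FPKM (log2 difference -0.16, adjusted p = 0.251).

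Of 13 leukocyte adhesion genes 9 rose (6 without sham mouse 1 or sham mouse 2 and 7 without sham mouse 3). Selp, P-selectin, on which leukocytes roll, went from 0.0354, 0.127 and 0.0636 to 11.7, 3.44 and 8.00 FPKM (log2 difference 2.89, SE 0.33, adjusted p = 0.00128) and Sele, E-selectin, from 1.46, 0.564 and 1.14 to 18.0, 6.33 and 14.3 (log2 difference 2.67, SE 0.34, adjusted p = 0.00181). Icam1 went from 13.8, 12.3 and 16.6 to 75.0, 45.9 and 50.8 (log2 difference 1.91, adjusted p = 0.000686), and Vcam1, which binds monocytes and lymphocytes, had 3.86, 3.74 and 4.38 and 7.15, 3.87 and 6.46 FPKM (log2 difference 0.42, adjusted p = 0.124). In both selectins mouse 1 was the highest and mouse 2 the lowest, as in the leukocyte genes. Of 12 endothelial markers 4 rose and 3 fell, against 12.6% and 18.2% of all tested genes. The tight junction gene Cldn5 rose from 16.7, 19.7 and 23.5 to 92.3, 93.4 and 54.6 FPKM (log2 difference 1.92, adjusted p = 0.00113), and the sialomucin gene Emcn fell from 53.7, 50.5 and 60.4 to 39.1, 30.4 and 34.1 (log2 difference -0.66, adjusted p = 0.00577). Aplnr, the receptor of apelin on endothelial cells, was 1 of the 4 genes with a log2 difference below -2. It fell from 16.3, 11.1 and 15.2 to 2.13, 2.13 and 2.51 FPKM (log2 difference -2.20, SE 0.14, adjusted p = 0.000167), with almost equal values in the 3 mice at 6 h. Its ligand Apln had 23.3, 17.8 and 22.0 and 40.3, 22.6 and 31.1 FPKM (log2 difference 0.53, adjusted p = 0.0801). The angiopoietin pair moved in opposite directions, with the vessel-stabilising Angpt1 falling from 12.5, 14.0 and 13.02 to 5.87, 5.04 and 8.03 FPKM (log2 difference -0.97, adjusted p = 0.00351) and its antagonist Angpt2 rising from 1.34, 1.01 and 1.44 to 3.87, 3.21 and 2.28 (log2 difference 0.85, adjusted p = 0.00835).

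Genes of proteins that act on clot and matrix were higher, with 8 of 16 coagulation genes risen (5 without any one sham mouse or 6 h mouse 3). The urokinase receptor gene Plaur went from 1.84, 1.83 and 1.75 to 71.5, 24.3 and 34.5 FPKM (log2 difference 3.84, adjusted p = 0.000391). F3, tissue factor, had 8.998, 9.67 and 8.47 and 9.90, 6.06 and 6.28 FPKM (log2 difference -0.28, adjusted p = 0.224). Of 17 matrix proteases and their inhibitors 13 rose, 12 of them in every fit that left out 1 mouse. Adamts4, an aggrecanase that cleaves proteoglycans, had 0.212, 0.0591 and 0.212 FPKM in the sham mice and 85.8, 24.0 and 33.9 at 6 h (log2 difference 5.19, SE 0.40, adjusted p = 0.000278). Timp1, an inhibitor of metalloproteinases, went from 0.483, 0.360 and 0.450 to 14.51, 9.81 and 10.2 (log2 difference 3.11, adjusted p = 4.61e-05). Ptx3, a long pentraxin that binds complement, went from 0.347, 0.101 and 0.287 to 71.1, 31.4 and 29.7 (log2 difference 5.07, adjusted p = 0.000126), and Serpina3n, a serine protease inhibitor of the acute phase, from 1.82, 2.66 and 3.21 to 74.7, 78.5 and 116 (log2 difference 4.66, SE 0.20, adjusted p = 2.78e-05). Mouse 3 was the highest for Serpina3n and the lowest for Ptx3.

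Matricellular genes rose, while more collagen genes fell than rose. Of 16 tested matricellular genes 9 rose, 8 of them in every fit that left out 1 mouse. Thbs1, thrombospondin 1, went from 2.34, 2.23 and 3.03 to 219, 71.8 and 90.0 FPKM (log2 difference 5.01, SE 0.36, adjusted p = 0.000242), Ctgf, a growth factor modulator, from 29.8, 25.6 and 27.9 to 468, 369 and 162 (log2 difference 3.41, adjusted p = 0.000734) and tenascin C gene Tnc from 0.266, 0.155 and 0.212 to 22.1, 4.21 and 6.28 (log2 difference 2.98, adjusted p = 0.00417). Postn, periostin of activated fibroblasts, had 6.51, 5.95 and 8.81 and 11.1, 5.98 and 7.57 FPKM (log2 difference 0.17, adjusted p = 0.563). Of 16 collagen genes 2 rose and 8 fell, the falls numbering 4 without sham mouse 1, 3 without sham mouse 3 and 6 after median-of-ratios scaling. Both rises were chains of basement membrane collagen, Col4a1 with 76.2, 58.0 and 79.9 FPKM in the sham mice and 198, 143 and 129.6 at 6 h (log2 difference 1.11, adjusted p = 0.00429) and Col4a2 with 51.9, 41.8 and 52.2 and 116, 97.6 and 86.6 (log2 difference 1.02, adjusted p = 0.00193). The falls included Col5a1, from 9.92, 8.30 and 10.7 to 4.98, 3.54 and 4.17 (log2 difference -1.03, adjusted p = 0.00193), and Col14a1, from 2.30, 2.45 and 3.42 to 1.08, 0.796 and 1.23 (log2 difference -0.87, adjusted p = 0.00562). Of 11 fibroblast markers 2 rose (1 without 6 h mouse 1 or 3 or any one sham mouse) and 2 fell (1 without 6 h mouse 2 or 3 or sham mouse 1 or 3). Over all tested genes 12.6% rose and 18.2% fell. The general fibroblast genes Pdgfra and Dcn, which did not pass the test, had 32.5, 31.4 and 31.0 and 120.2, 128 and 126 FPKM in the sham mice against 40.3, 28.7 and 43.6 and 119.8, 106 and 136 at 6 h (adjusted p = 0.281 and 0.687). In the TGF-β and BMP list 15 of 24 rose, and 9 without sham mouse 1, led by the activin subunit gene Inhbb, from 1.178, 1.86 and 1.38 to 74.2, 35.7 and 33.1 FPKM (log2 difference 4.21, SE 0.28, adjusted p = 0.000171), with the ligand Tgfb1 at 7.49, 8.44 and 8.29 and 13.6, 8.79 and 7.83 (log2 difference 0.25, adjusted p = 0.3). Hbegf, a ligand of the EGF receptor, went from 5.27, 4.85 and 5.15 to 106, 68.3 and 45.4 FPKM (log2 difference 3.53, adjusted p = 0.000249).

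**Figure D3:**
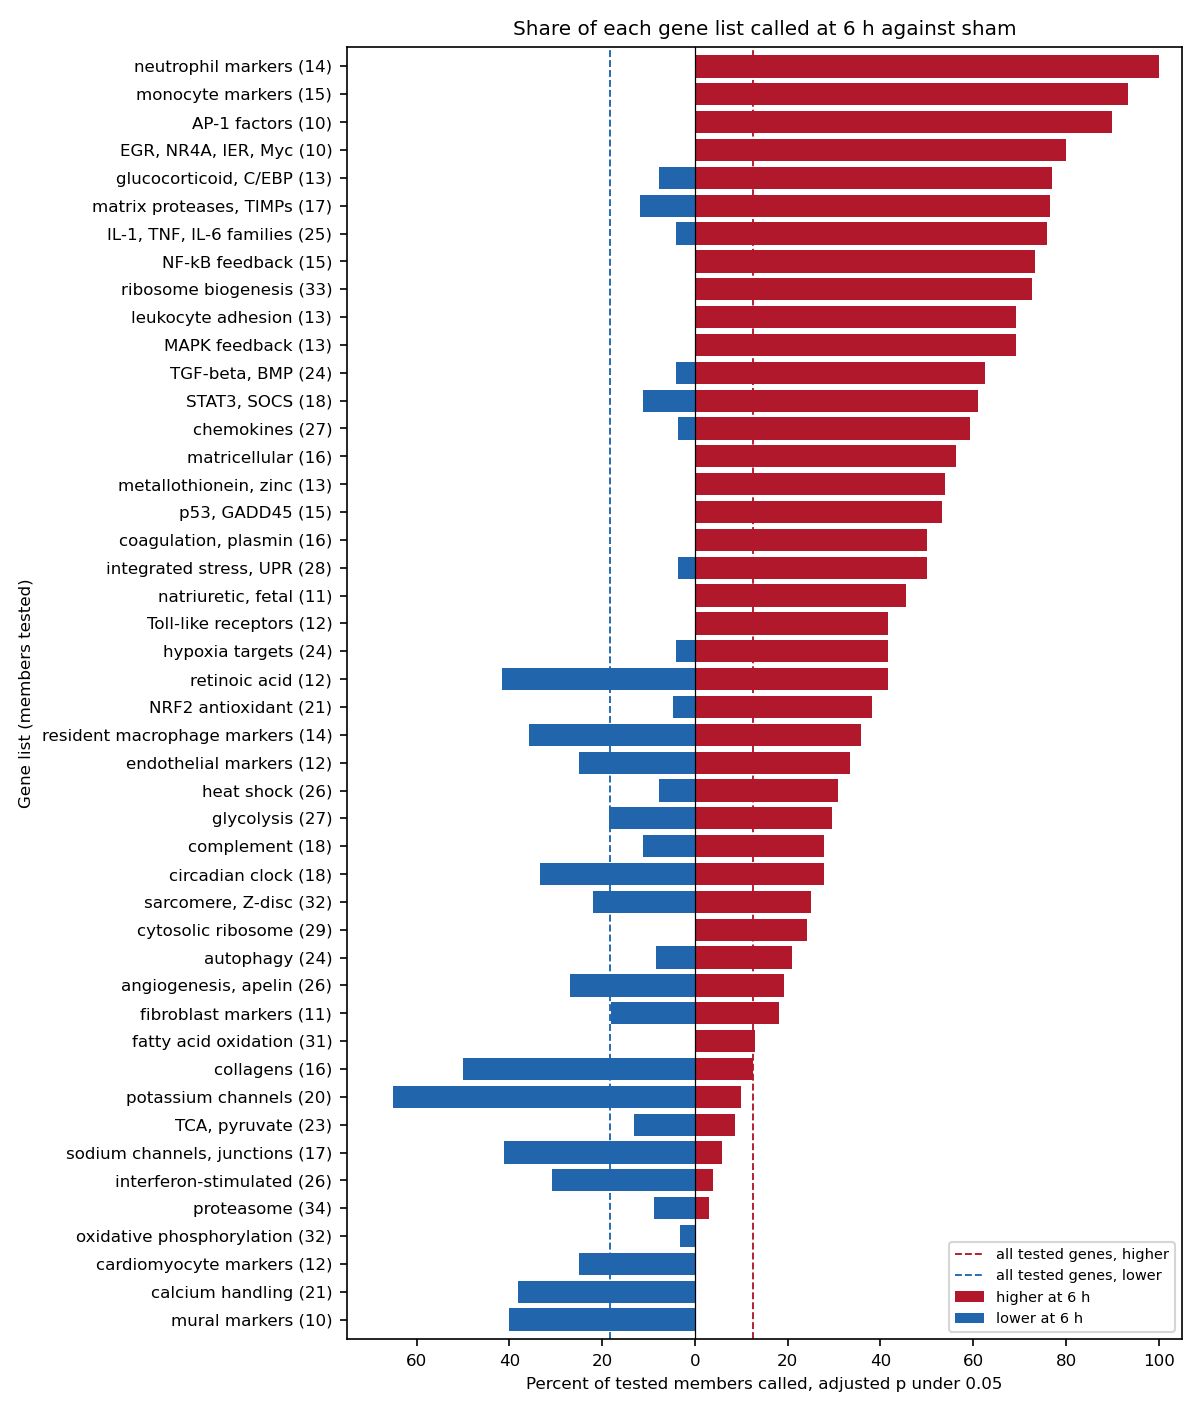
Percent of the tested members of 46 gene lists that were called higher (right) or lower (left) at 6 h, with the share over all tested genes as dashed lines at 12.6% and 18.2%. Neutrophil markers stood highest with 14 of 14 tested, where 19 were listed and some passed the filter only through the 6 h mice. Potassium channels had the largest share of falls with 13 of 20.

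Of 32 sarcomere and Z-disc genes 8 rose, 7 fell and 17 did not pass the test, where 12.6% of all tested genes rose and 18.2% fell. Of 11 natriuretic and fetal genes 5 rose, with 4 without sham mouse 1 or 2, 5 without 6 h mouse 1 and 8 without 6 h mouse 3. For the first list, rises numbered 5 without sham mouse 3, falls numbered 1, 2 and 2 without sham mouse 1, 2 and 3 and 11 without 6 h mouse 2, and 2 falls were left after median-of-ratios scaling. Ankrd2, a stretch-induced ankyrin repeat protein, went from 0.774, 1.14 and 0.471 to 55.6, 65.7 and 19.2 FPKM (log2 difference 4.58, SE 0.41, adjusted p = 0.000461), and its relative Ankrd1 from 717, 744 and 604 to 3746, 3400.0 and 1834 (log2 difference 2.06, SE 0.25, adjusted p = 0.00144). Flnc, filamin C of the Z-disc, went from 223, 193 and 219 to 1701, 969.6 and 518 (log2 difference 2.16, adjusted p = 0.00506). Nppb, the natriuretic peptide BNP, went from 74.4, 63.5 and 61.3 to 646, 485 and 194 FPKM (log2 difference 2.55, SE 0.38, adjusted p = 0.00336). In all 4 genes mouse 3 was the lowest at 6 h and above every sham mouse. Nppa, the atrial peptide, had 485, 206 and 338 FPKM in the sham mice and 851, 606 and 254 at 6 h, with overlap (log2 difference 0.65, adjusted p = 0.296). The myosin gene Myh6 had 5279, 4903 and 4889.6 and 3803, 4531 and 4267 FPKM, a small fall (log2 difference -0.26, adjusted p = 0.0397) that was lost in 5 of the 6 fits that left out 1 mouse, with an adjusted p of up to 0.155 without sham mouse 1. Mybpc3, myosin binding protein C, fell from 3480.3, 3422 and 3462 to 2514, 2759 and 2734 (log2 difference -0.37, adjusted p = 0.00469).

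Several muscle genes outside these lists were among the largest falls. Lmod3, a nucleator of actin filaments in the sarcomere, fell from 42.4, 36.4 and 37.6 to 8.22, 9.71 and 11.2 FPKM (log2 difference -1.90, SE 0.12, adjusted p = 0.000158). Asb2, a subunit of a ubiquitin ligase that acts on filamins, fell from 318, 316 and 314 to 83.5, 106 and 100.7 (log2 difference -1.70, SE 0.10, adjusted p = 0.000106). Ky, a muscle protease-like protein that binds filamin C, fell from 5.12, 5.08 and 5.85 to 0.456, 0.638 and 1.38 (log2 difference -1.83, SE 0.18, adjusted p = 0.000734). In each of them the 3 values at 6 h were well below every sham value. Other large falls were those of Lrrc4b, from 33.8, 39.5 and 32.6 to 5.67, 8.95 and 7.87 FPKM (log2 difference -2.11, adjusted p = 0.000244), the membrane metalloproteinase gene Mmp15, from 50.5, 50.5 and 53.4 to 16.8, 14.99 and 20.8 (log2 difference -1.51, adjusted p = 0.000302), Fam78a, from 10.1, 9.03 and 9.44 to 1.81, 1.96 and 2.95 (log2 difference -1.72, adjusted p = 0.000331), Phyhip, from 21.8, 19.4 and 23.9 to 6.78, 5.51 and 9.34 (log2 difference -1.49, adjusted p = 0.00115), and Slc26a10, from 13.9, 14.53 and 12.2 to 4.90, 4.38 and 3.39 (log2 difference -1.48, adjusted p = 0.000418).

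Potassium channel genes were mostly lower. Of 20 potassium channel genes 13 fell, with a median log2 difference of -0.43 against -0.10 for all genes. Falls numbered 7, 8 and 8 without sham mouse 1, 2 and 3, and 10 after median-of-ratios scaling. Kcnj5 and Kcnj3 encode the subunits of the channel opened by acetylcholine, and Kcnj11 the pore of the ATP-sensitive channel. Kcnj5 fell from 15.9, 15 and 15.7 to 4.60, 4.84 and 5.79 FPKM (log2 difference -1.45, SE 0.10, adjusted p = 0.000179), Kcnj3 from 35.5, 36.3 and 34.0 to 12.2, 13.8 and 22.5 (log2 difference -1.12, SE 0.20, adjusted p = 0.00587) and Kcnj11 from 45.4, 45.1 and 44.8 to 18.7, 25.7 and 22.5 (log2 difference -0.997, SE 0.12, adjusted p = 0.00128). Kcne4, a regulatory subunit, rose from 1.01, 0.978 and 0.972 to 6.63, 3.28 and 3.64 (log2 difference 1.42, adjusted p = 0.00297), and Kcnj2, of the inward rectifier, had 9.76, 8.60 and 9.26 and 5.13, 6.37 and 8.86 FPKM (log2 difference -0.42, adjusted p = 0.0908). The connexin 43 gene Gja1 had 352, 284 and 312 FPKM in the sham mice and 341, 268 and 333 at 6 h (log2 difference -0.01, adjusted p = 0.952). Of 21 calcium handling genes 8 fell, with 4, 5 and 5 left without sham mouse 1, 2 and 3, 5 without 6 h mouse 1 or mouse 2, and 4 after median-of-ratios scaling. Over all tested genes 18.2% fell, and 924 of 12201 fell without sham mouse 1 and 1456 of 12254 after median-of-ratios scaling. Pln, phospholamban, fell from 1620.2, 1599 and 1553 to 924, 1030.3 and 1190.2 FPKM (log2 difference -0.61, adjusted p = 0.0039), while the calcium pump that it inhibits, Atp2a2, had 3931, 4026 and 3937 and 3613, 3340.0 and 4354 (log2 difference -0.08, adjusted p = 0.534).

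Genes of the respiratory chain stayed near the median of all genes. Of 32 genes of oxidative phosphorylation 1 was called, and 0 to 2 in the fits that left out 1 mouse. Their median log2 difference of -0.09 was close to that of all genes. Among regulators of fuel use, Pdk4, which blocks the entry of pyruvate into the mitochondrion, went from 118, 95.2 and 77.6 to 1567, 1921 and 1531 FPKM (log2 difference 4.11, SE 0.16, adjusted p = 1.76e-05), and Angptl4, an inhibitor of lipoprotein lipase, from 0.297, 0.474 and 0.518 to 29.1, 44.1 and 21.0 (log2 difference 4.44, SE 0.23, adjusted p = 6.61e-05). Both are known targets of fatty acid receptors and of glucocorticoids. Fkbp5, a chaperone of the glucocorticoid receptor and a target of it, went from 11.96, 17.3 and 15.9 to 112, 134 and 157 FPKM (log2 difference 3.08, SE 0.16, adjusted p = 6.61e-05), whereas the receptor gene Nr3c1 fell from 42.3, 43.8 and 45.2 to 28.0, 22.8 and 29.0 (log2 difference -0.71, adjusted p = 0.00317). In all, 10 of 13 genes of the glucocorticoid and C/EBP list rose. The uncoupling protein gene Ucp3 went from 21.5, 22.3 and 21.3 to 53.7, 110.0 and 119 FPKM (log2 difference 1.99, adjusted p = 0.00232). Perm1, a muscle regulator of mitochondrial genes, fell from 116, 121 and 119.9 to 57.8, 62.2 and 65.6 (log2 difference -0.93, adjusted p = 0.000341), and Pfkfb2, the enzyme that makes the activator of glycolysis in heart, from 31.7, 30.1 and 30.2 to 11.2, 11.8 and 16.3 (log2 difference -1.19, adjusted p = 0.00119). The lactate exporter gene Slc16a3 rose from 1.26, 1.10 and 1.80 to 46.1, 17.0 and 23.4 (log2 difference 3.54, SE 0.32, adjusted p = 0.00046).

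Genes that build ribosomes rose together by small amounts. Of 33 tested ribosome biogenesis genes 24 rose, 17 of them in every fit that left out 1 mouse, with 26 after median-of-ratios scaling and a median log2 difference of 0.51. Rrp12, a factor of pre-rRNA processing, went from 6.13, 5.09 and 5.76 to 18.4, 15.3 and 12.3 FPKM (log2 difference 1.28, adjusted p = 0.00112) and nucleolin gene Ncl from 129, 133 and 129 to 178, 159.8 and 171 (log2 difference 0.38, adjusted p = 0.00853). Of 29 cytosolic ribosomal protein genes 7 rose, and 22 after median-of-ratios scaling. Without any one sham mouse this count was at most 1, and without 6 h mouse 1 or 3 it was 4. Sat1, which breaks down polyamines, rose from 3.48, 3.99 and 3.82 to 25.8, 15.5 and 17.6 FPKM (log2 difference 2.09, adjusted p = 0.000341), and Odc1, which starts their synthesis, from 80.5, 78.1 and 81.6 to 206, 111 and 151 (log2 difference 0.91, adjusted p = 0.0126). Of 21 genes of the BCL2 and apoptosis list 7 rose (4 without sham mouse 1 or sham mouse 3), and of 15 genes of necroptosis and ferroptosis 9 rose (4 without any one sham mouse and 5 without 6 h mouse 3). Among them the anti-apoptotic gene Bcl2l1 rose from 40.0, 51.2 and 58.6 to 161, 174 and 112 FPKM (log2 difference 1.55, adjusted p = 0.0016), the death receptor gene Fas from 7.78, 9.19 and 8.23 to 19.7, 16.4 and 17.3 (log2 difference 1.000, adjusted p = 0.000806), and the necroptosis kinase gene Ripk3 from 4.58, 4.65 and 6.38 to 20.9, 11.4 and 13.3 (log2 difference 1.35, adjusted p = 0.00416). Mlkl, the effector of necroptosis, had 0.814, 1.07 and 0.944 and 1.004, 0.658 and 0.943 FPKM (log2 difference -0.06, adjusted p = 0.74). Of 24 autophagy genes 5 rose, against 12.6% of all tested genes. Gabarapl1 went from 120.2, 119 and 109.7 to 212, 213 and 156 (log2 difference 0.72, adjusted p = 0.0065), and Wipi1, which binds the early autophagosome membrane, had 15.3, 15.3 and 15.3 and 12.3, 11.1 and 15.4 FPKM (log2 difference -0.24, adjusted p = 0.152).

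The largest fall of all was that of Cyp1a1, a cytochrome P450 induced through the aryl hydrocarbon receptor. It had 87.3, 160.0 and 304 FPKM in the sham mice and 6.74, 7.33 and 7.45 at 6 h (log2 difference -4.32, SE 0.38, adjusted p = 0.000426), so that a wide spread in the sham mice met a narrow one at 6 h. Of 6 tested genes of the receptor and its targets 2 rose and 3 fell, with 1 fall after median-of-ratios scaling and in each fit that left out 1 mouse other than 6 h mouse 2. The risen targets were Cyp1b1, from 4.59, 5.50 and 6.82 to 23.6, 19.2 and 18.9 FPKM (log2 difference 1.71, adjusted p = 0.000365) and Tiparp, from 2.66, 3.26 and 3.61 to 18.3, 7.499 and 10.3 (log2 difference 1.56, adjusted p = 0.00562). The falls besides Cyp1a1 were those of the receptor gene Ahr, from 5.62, 5.56 and 5.62 to 4.16, 4.76 and 3.87 FPKM (log2 difference -0.33, adjusted p = 0.035), and of Nqo1, a quinone reductase named after its values were seen, from 25.6, 30.9 and 28.3 to 17.3, 24.2 and 20.3 (log2 difference -0.44, adjusted p = 0.0383). Retinoic acid genes moved both ways, with 5 of 12 higher and 5 lower, where 12.6% of all tested genes rose and 18.2% fell. The synthesising enzyme genes Aldh1a2 and Aldh1a3 rose, from 0.712, 0.960 and 1.24 to 8.05, 4.65 and 6.58 FPKM (log2 difference 1.90, adjusted p = 0.000677) and from 0.405, 0.492 and 0.823 to 6.59, 3.33 and 3.73 (log2 difference 1.78, adjusted p = 0.00159). The receptor genes Rarb and Rarg fell, from 16.9, 16.8 and 14.2 to 6.07, 6.24 and 7.57 FPKM (log2 difference -1.15, adjusted p = 0.000679) and from 53.03, 73.8 and 51.1 to 26.4, 30.3 and 28.8 (log2 difference -1.01, adjusted p = 0.00269). Cyp26b1, which degrades retinoic acid, had 37.9, 185 and 12.9 FPKM in the sham mice and 6.02, 3.21 and 6.57 at 6 h (log2 difference -2.94, adjusted p = 0.0292), a call that held in 2 of the 6 fits that left out 1 mouse, with an adjusted p of up to 0.0729 without 6 h mouse 2.

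Of 18 tested clock genes 5 rose and 6 fell, the rises numbering 3 without any one sham mouse, and the median log2 difference of -0.05 lay near that of all genes. Over all tested genes 12.6% rose and 18.2% fell. Dbp, a transcription factor driven directly by the clock, went from 91.5, 88.9 and 86.5 to 20.01, 19.8 and 29.9 FPKM (log2 difference -1.92, SE 0.15, adjusted p = 0.000307), Per3 from 30.2, 27.7 and 27.8 to 5.88, 9.90 and 11.7 (log2 difference -1.59, SE 0.21, adjusted p = 0.00193) and Hlf from 11.6, 11.2 and 11.4 to 3.19, 3.32 and 5.49 (log2 difference -1.34, adjusted p = 0.00161). Arntl, the activator BMAL1, rose from 0.495, 0.344 and 0.327 to 2.43, 1.87 and 1.36 FPKM (log2 difference 1.04, adjusted p = 0.00347), and Nfil3, a repressor of the same sites as Dbp, from 2.27, 2.99 and 3.30 to 15.6, 7.91 and 6.93 (log2 difference 1.46, adjusted p = 0.00672). The time of day of sampling is not given in the sources used here, so that it cannot be told apart from the group. At 10 min Dbp stood at 45.2 ± 16.2 FPKM and Per3 at 11.4 ± 3.35 FPKM (SD, n = 3 mice), below the sham means of 89.0 ± 2.49 and 28.6 ± 1.42, and Cyp1a1 was then at 14.3 ± 8.67 against 184 ± 111 in the sham mice.

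The 6 h mice differed from each other more than the sham mice did. The median SD of log2(FPKM + 1) was 0.161 at 6 h and 0.0829 in the sham mice, and 77.4% of the tested genes were wider at 6 h. Mouse 1 was the furthest from sham in 74.5% of the genes that rose and in 56.2% of those that fell. The lowest of the 3 mice depended on the kind of gene. For chemokine ligands mouse 2 was the lowest in 15 of 16 genes that rose, and the median of the neutrophil list lay 3.61, 1.78 and 2.51 above the sham mean in mice 1, 2 and 3 on the log2 scale. For the natriuretic and fetal list mouse 3 was the lowest, with 1.40, 1.22 and 0.25, and the count of its rises went from 5 of 11 to 8 without that mouse. The widest spread among called genes with a mean of at least 5 FPKM at 6 h was that of S100a9, followed by Trem1, a receptor that amplifies inflammation, with 36.8, 3.35 and 10.7 FPKM in the 3 mice. Hamp, the iron hormone hepcidin, had 0, 0 and 0.114 FPKM in the sham mice and 15.8, 3.74 and 1.184 at 6 h (log2 difference 2.43, adjusted p = 0.0235), a call lost without any one sham mouse, with an adjusted p of up to 0.0715 without sham mouse 1.

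A few of the largest rises were almost the same in every mouse. Among the 143 genes with a log2 difference over 2, the highest 6 h value was 2.58 times the lowest at the median, over 5 times in 22 genes and under 1.5 times in 15. Lcn2, a protein that binds bacterial iron carriers, had 4.81, 4.20 and 3.54 FPKM in the sham mice and 264, 255 and 262 at 6 h (log2 difference 5.66, SE 0.10, adjusted p = 8.95e-08), a ratio of 1.03 between the highest and the lowest mouse. The ratio was 1.07 for Mt1, 1.15 for Mt2, 1.25 for Pdk4 and 1.41 for Fkbp5. Lcn2 is also made by neutrophils, and the mice were far closer to each other in Lcn2 than in S100a9. Which cells held the Lcn2 RNA was not tested.

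**Figure D4:**
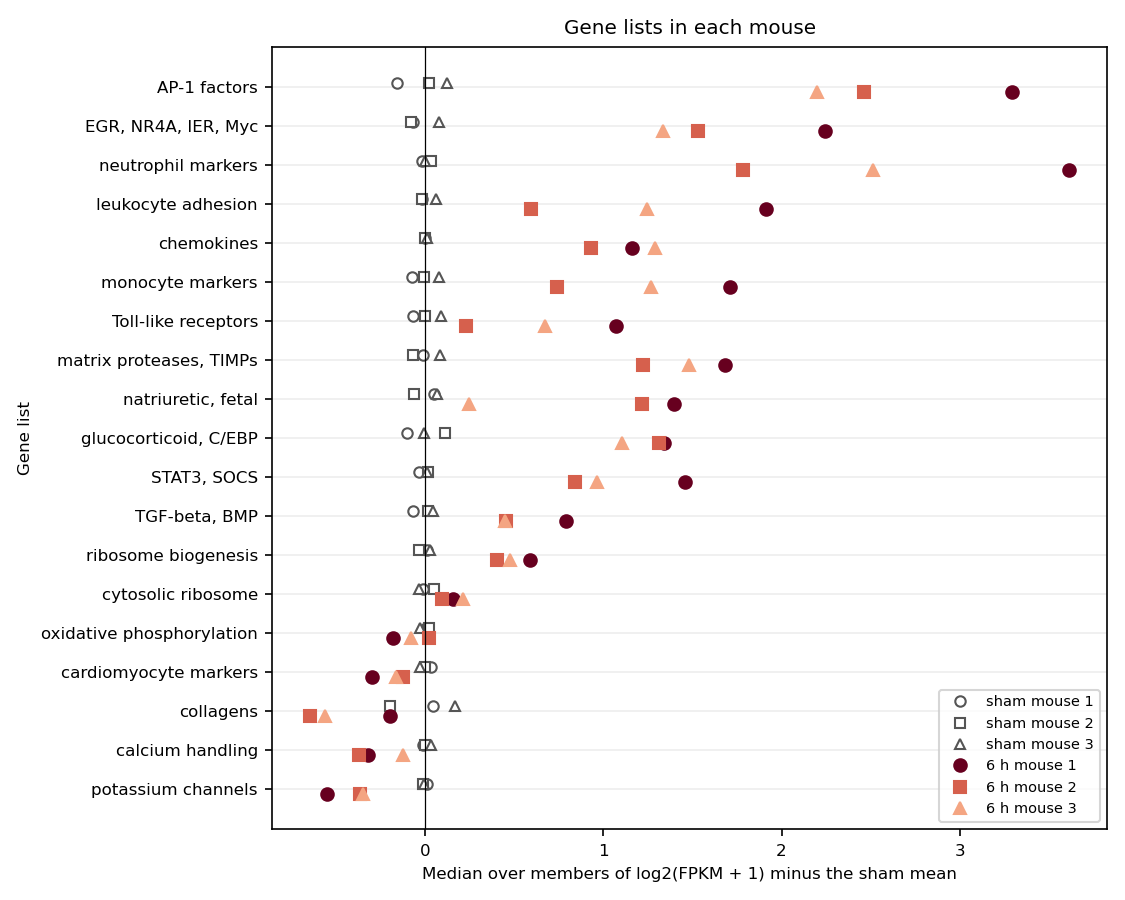
Median over the tested members of 19 gene lists of log2(FPKM + 1) minus the mean of the sham mice, for each sham mouse (open) and each 6 h mouse (filled). Mouse 1 lay furthest to the right for AP-1 factors (3.30 against 2.47 and 2.20 in mice 2 and 3), mouse 2 was the lowest for leukocyte lists and mouse 3 for the natriuretic and fetal list.

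Several of the largest rises also set 6 h apart from 1 h. Against the 1 h mice, 1250 genes were higher (10.2% of 12203 tested) and 1515 lower (12.4%) at 6 h. These counts were 710 and 624 without 1 h mouse 1, 543 and 447 without 1 h mouse 2, and 696 and 642 without 1 h mouse 3, and 1584 and 1099 after median-of-ratios scaling. This test shares the 6 h mice with that against sham. Lcn2 had 5.89 ± 1.03 FPKM at 1 h (SD, n = 3 mice) and was higher at 6 h (log2 difference 5.26, adjusted p = 4.25e-07). Cxcl5 had 0.153 ± 0.0384 FPKM at 1 h (log2 difference 4.79, adjusted p = 3.89e-05) and Ankrd2 0.561 ± 0.262 (log2 difference 4.78, adjusted p = 0.000531). The immediate early genes differed from this. Fos stood at 67.0 ± 17.8 FPKM at 1 h and 24.4 ± 18.5 at 6 h (log2 difference -1.63, adjusted p = 0.0335), a fall that was kept in 1 of the 6 fits that left out a mouse, with an adjusted p of up to 0.103 without 1 h mouse 3. Atf3 had 64.8 ± 18.8 FPKM at 1 h and 76.3 ± 53.7 at 6 h (log2 difference 0.06, adjusted p = 0.932). Lmod3 had 32.9 ± 3.80 FPKM at 1 h and was lower at 6 h (log2 difference -1.66, adjusted p = 0.000481).

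At 24 h, 1712 genes were higher (13.7% of 12469 tested) and 281 lower (2.25%) than at 6 h, in a test that again shares the 6 h mice. It rested on single animals and on the scale. The counts were 318 and 62 without 6 h mouse 1, 1 and 1 without 6 h mouse 2, 275 and 47 without 6 h mouse 3, and 116 and 20 without 24 h mouse 2, while 976 were higher without 24 h mouse 3. The median log2 difference over all genes was 0.21, and after median-of-ratios scaling 430 were higher and 446 lower. Mt2, Hspa1a and Pdk4 went against that shift and were lower at 24 h. Mt2 had 3812 ± 286 FPKM at 6 h and 1157 ± 734 at 24 h (log2 difference -1.91, adjusted p = 0.025), and Hspa1a had 179 ± 138 and 19.5 ± 14.4 (log2 difference -3.11, adjusted p = 0.0237). Pdk4 had 1673 ± 216 and 269 ± 185 FPKM (log2 difference -2.89, adjusted p = 0.0176). The adjusted p reached 0.0871 for Mt2 and 0.0771 for Pdk4 without 6 h mouse 2 and 0.0785 for Hspa1a without 24 h mouse 2, and the calls held in 2, 4 and 2 of the 6 fits that left out 1 mouse. Ankrd1 had 4144 ± 819 FPKM at 24 h against 2993 ± 1019 (log2 difference 0.52, adjusted p = 0.212), and Aplnr 5.61 ± 3.35 against 2.26 ± 0.222 (log2 difference 0.91, adjusted p = 0.0775).

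**Figure D5:**
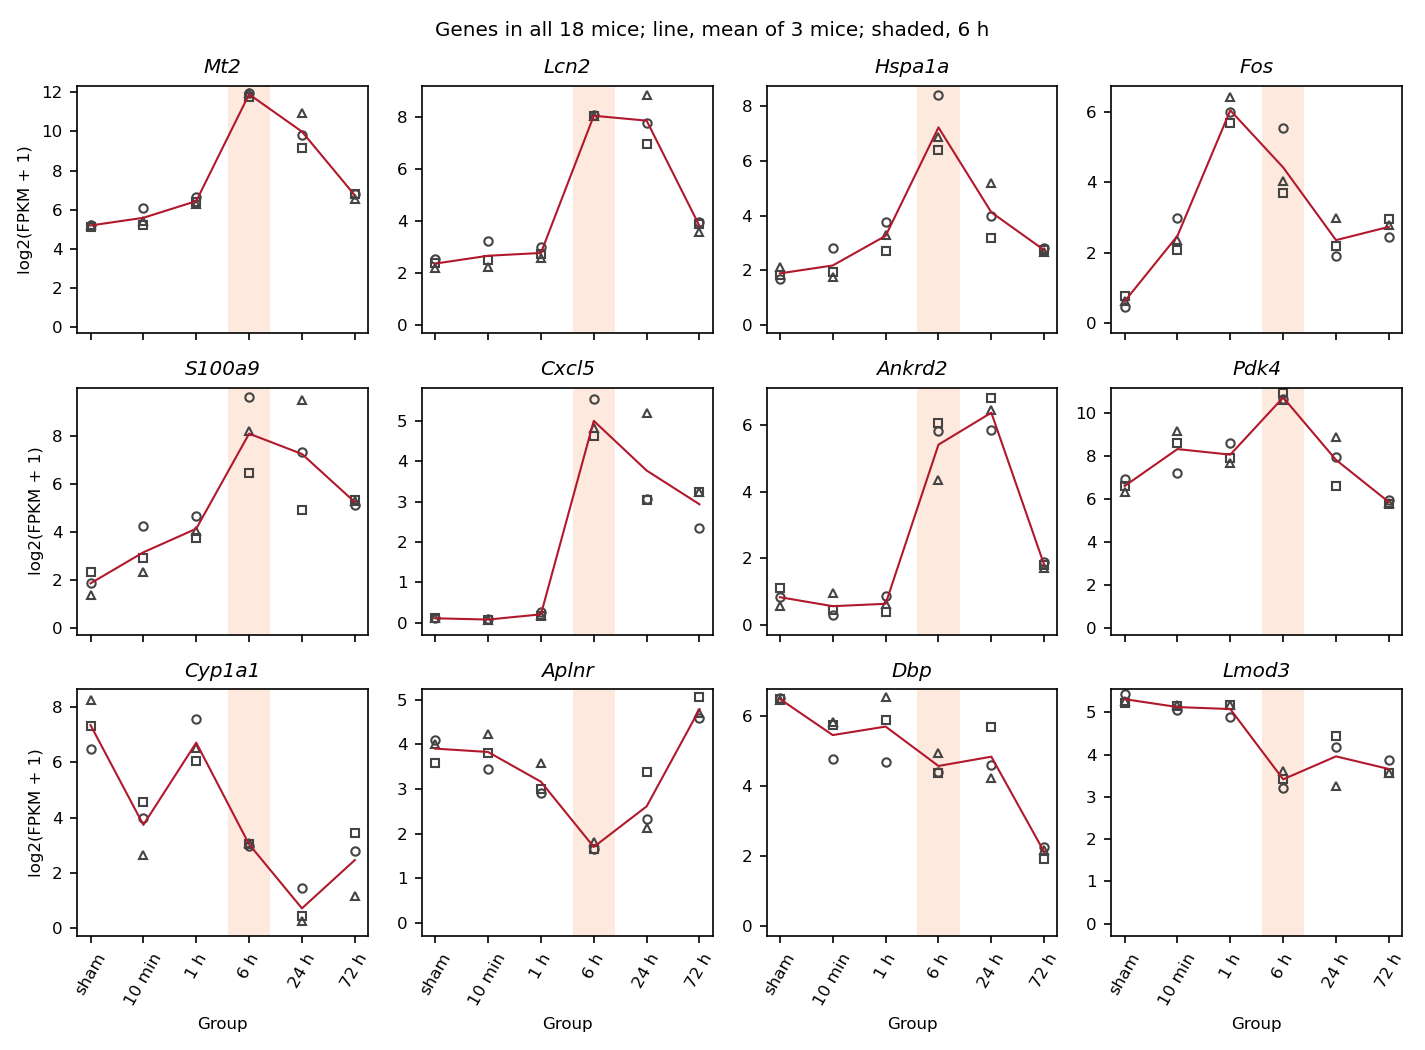
Log2(FPKM + 1) of 12 genes in all 18 mice, with the mean of 3 mice as a line and 6 h shaded. Mt2, Hspa1a and Pdk4 had their highest mean at 6 h, Fos had its highest mean at 1 h, and Aplnr its lowest at 6 h.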

How the data were processed

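Polyadenylated RNA of the infarct left ventricle was prepared with the NEBNext Ultra kit and sequenced as 150 bp pairs on a Novaseq. Per the study's methods and the submitters' processing notes, the authors trimmed reads with cutadapt 1.18, aligned them to mm10 with HISAT2 2.1.0 and computed FPKM with StringTie 1.3.4d, and Cufflinks was used to compare groups. The deposited table holds 1 FPKM value per gene symbol and mouse. Its annotation is not named in the sources used here, and 0 columns of values were left out. Because FPKM divides by length and by the library total, a rise of a few abundant genes lowers all others, and read depth is not given.

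Values of the 3 sham and 3 mice at 6 h were taken as log2(FPKM + 1), genes reaching 1 FPKM in any of these mice were kept, and limma 3.58.1 (R 4.3.3, trend, Benjamini-Hochberg adjustment over all tested genes, 2-sided) was run with groups as the only term. The same was done for 6 h against 1 h and 24 h against 6 h. On simulated data 198 of 200 genes with a log2 change of 1.5 were called, with 10 unchanged genes called of 12254 genes simulated. How these counts change at the wider spread of the 6 h mice was not tested. The median SD of log2(FPKM + 1) was 0.161 at 6 h and 0.0829 in the sham mice. The authors' comparison with Cufflinks needs reads and was not run. The figures were drawn with Python 3.11.15 and matplotlib 3.10.9.

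The comparison, its gene lists and the tests were chosen with earlier results of these data known. Genes are named where they were among the 15 largest rises, the 12 largest falls or the 8 widest spreads (with a group mean of at least 5 FPKM and, for rises and falls, a call in every fit that left out 1 mouse), or were a defining member or 1 of the 3 largest changes of a list. Some genes that met this rule are not reported here. Positions are from GENCODE release M21 (mm10) and promoter sequences from RefSeq GRCm38.p6. The alternatives tried were other pseudocounts, filters, scalings, a fit over all 18 mice, a replicate block, no trend and leaving out each mouse.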

Additional observations from a re-analysis of the deposited data

How the results depend on the processing

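Against sham, the counts of 1550 higher and 2225 lower genes ranged from 832 to 1768 and from 858 to 2861 when 1 mouse was left out, and median-of-ratios scaling gave 1456 lower genes. DEGs lower at 6 h numbered 757 with no filter on low values. The 33 genes of the largest rises, the largest falls and the widest spreads were tested again 528 times. Of these repeats 524 kept direction and call and 4, all for Hamp, lost the call, with an adjusted p from 0.0588 with no filter to 0.0715 without sham mouse 1. The 15 rises and 12 falls had been picked for a call in every fit that left out 1 mouse, so that those repeats could not fail for them. The other named genes are not in this count, and some of them, such as Casp1, Myh6 and Cxcl12, lost their call when 1 mouse was left out. For 6 h against 1 h, leaving out 1 mouse gave 543 to 1361 higher and 447 to 2027 lower genes, and fitting all 18 mice together gave 2381 lower. For 24 h against 6 h, leaving out 1 mouse gave 1 to 1767 higher and 1 to 372 lower genes. Higher genes numbered 976 with no filter, 430 after median-of-ratios scaling, 403 after quantile normalization and 4740 with all 18 mice in one fit, and lower genes 131 with no filter, 446 after median-of-ratios scaling and 996 with all 18 mice. The cause of these shifts was not tested.

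The sham and 6 h mice of the same number did not deviate together (correlations of 0.05, -0.0261 and -0.0232 over genes), so the number was not read as a pairing. With a replicate block, 1306 genes were higher and 1645 lower against sham, 963 were lower against 1 h, and 1 was higher and 0 lower at 24 h than at 6 h in limma, where 3924 genes had an unadjusted p under 0.05.

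Limits come from 3 mice per group, single libraries that decide counts, FPKM without read counts, and a gene annotation that is not named. Low genes cannot be given a counting error.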

Other observations

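The atrial signal of 6 h mouse 1 was not seen in the other libraries of the series. Myl7 was at 18.7 FPKM in that mouse and at most 0.490 in the 17 others, Sln at 12.5 against at most 0.132, Myl4 at 63.0 against at most 2.89, and Bmp10, a growth factor of atrial muscle, at 2.48 against 0 in every other mouse. These genes were picked after their values had been seen. Without 6 h mouse 1, 1259 genes were higher and 1743 lower at 6 h than in the sham mice.

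In 5 genes with at least 20 FPKM in 1 mouse the values jumped over 20-fold between mice of the same groups. Jund was near 1 FPKM in some mice of every group and between 40.6 and 94.8 in the rest. The beta-globin symbols Hbb-b1 and Hbb-bs exchanged places, with Hbb-b1 at 1275, 0.192 and 0.271 FPKM in sham mice 1, 2 and 3 where Hbb-bs was at 66.0, 1028 and 1467. At 6 h Hbb-b1 had 2064, 0.358 and 0.214 FPKM in mice 1, 2 and 3 and Hbb-bs had 60.1, 2370.3 and 1237. The globin genes are near-identical copies, so that the split of reads between them is uncertain. Neat1, a nuclear long non-coding RNA, had 0.960 FPKM in 6 h mouse 1 and 439 and 159 in mice 2 and 3, against 277, 170 and 193 in the sham mice. The fifth gene was Myl4.

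The counts of this paragraph stand against 12.6% risen and 18.2% fallen over all tested genes, and no list was tested as a set. Of 31 fatty acid oxidation and lipid uptake genes 4 rose, close to the share of all genes. Of 20 cardiac transcription factor genes 1 rose and 5 fell (falls numbering 3, 3 and 2 without sham mouse 1, 2 and 3), and of 34 proteasome genes 1 rose and 3 fell (1 without sham mouse 3). Of 12 KLF genes 5 rose, and 2 without sham mouse 1 or sham mouse 2. Klf6 went from 69.4, 68.7 and 71.0 to 246, 129.8 and 133 FPKM (log2 difference 1.21, adjusted p = 0.00764), whereas Klf15, a factor of muscle metabolism, had 20.3, 25.8 and 22.9 in the sham mice and 14.3, 23.4 and 23.7 at 6 h (log2 difference -0.19, adjusted p = 0.468). Of 17 sodium channel and cell junction genes 7 fell (at most 1 without any one sham mouse, 4 without 6 h mouse 1 or 2, and 3 after median-of-ratios scaling). Of 10 mural cell markers 4 fell, and 2 without sham mouse 2 or sham mouse 3.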
